A study of Drosophila melanogaster with 3 samples.

Results

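Transfer RNA (tRNA) genes were examined as possible sites of Stripe ChIP-seq signal in Drosophila embryos. They were all genes of biotype tRNA annotated on X, 4 and the 4 large autosomal arms in Ensembl release 115 (assembly Release 6, the coordinates of dm6), 290 of the 23973 genes there. A tRNA gene was counted in a peak list when the summit of a peak, its highest position, lay in the gene or within 250 bp of it. The study is a chromatin immunoprecipitation and sequencing (ChIP-seq) experiment on whole embryos aged 8 to 24 h from transgenic flies of a strain named sr-GFP, which express the transcription factor Stripe (gene sr) as an sr-eGFP fusion. Its 3 libraries are biological replicates of the only group, with no second genotype, stage or tissue, so no comparison between groups could be made. Per the labels' description the antibody was against GFP, although the antibody entry reads sr. Because whole embryos were used, a peak does not tell in which cells the signal arose, and the files give no read totals, so depth is unknown.

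tRNA genes are transcribed by RNA polymerase III from promoters that lie inside the gene: the A box and the B box are bound by the factor TFIIIC, which places TFIIIB just upstream of the start. They are short, present in many copies and among the most actively transcribed genes of growing cells. Stripe is an EGR-type zinc finger protein best known for directing the differentiation of tendon cells, to which the muscles of the embryo attach, and its family binds a GC-rich core motif at RNA polymerase II genes.

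The sequences below show what the peaks sat beside. The first set gives tRNA genes that had a thresholded peak and is printed 5′ to 3′ on the gene's strand, with the match to the B box (GTTCNANNC) in capitals. The Asp-GTC-2-1 gene (tRNA for aspartate, dm6 chr2L:5240766-5240837, plus strand) has no identical copy, whereas the sequence of Asp-GTC-1-5 (chr2L:8541761-8541832, plus) occurs in 12 genes. Pro-AGG-1-1 (proline, chr2L:14495878-14495949, plus) has the sequence of 7 genes. Cys-GCA-1-4 (cysteine, chr3L:3097519-3097590, plus) has that of 4, among them its neighbour Cys-GCA-1-1 (chr3L:3095737-3095808, plus). Tyr-GTA-1-8 (tyrosine, chr3R:8669081-8669174, minus) is 94 bp long and without an identical copy. Ala-AGC-2-10 (alanine, chr3R:17668187-17668259, plus) shares its sequence with 11 genes in all, Ala-AGC-2-8 included, and holds no match to the B box as spelled here. All sequences are from the RefSeq Release 6 genome.
Asp-GTC-2-1: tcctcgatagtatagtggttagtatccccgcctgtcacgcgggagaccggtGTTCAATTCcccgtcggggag
Asp-GTC-1-5: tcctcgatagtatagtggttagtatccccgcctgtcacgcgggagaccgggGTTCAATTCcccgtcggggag
Pro-AGG-1-1: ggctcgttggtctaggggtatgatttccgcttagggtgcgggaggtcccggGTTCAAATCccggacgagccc
Cys-GCA-1-4: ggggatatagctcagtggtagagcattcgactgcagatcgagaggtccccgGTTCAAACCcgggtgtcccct
Tyr-GTA-1-8: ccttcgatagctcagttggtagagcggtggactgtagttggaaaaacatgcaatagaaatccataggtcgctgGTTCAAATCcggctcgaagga
Ala-AGC-2-10: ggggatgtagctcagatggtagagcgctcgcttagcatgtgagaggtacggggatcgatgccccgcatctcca

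The second set gives the 201 bases centred on the summit in the longest joint list for the 3 tRNA summits of that list with the EGR core (GTGGGCG or GTGGGTG on either strand) within 100 bp. They are printed on the plus strand, where each core, in capitals, reads as its reverse complement. The window at Tyr-GTA-1-9 (chr2L:7711163-7711363) holds 3 cores, and those at Cys-GCA-1-4 (chr3L:3097408-3097608) and Tyr-GTA-1-8 (chr3R:8669297-8669497) hold 1 each. The Cys-GCA-1-4 window runs into the tRNA gene itself.
Tyr-GTA-1-9 summit: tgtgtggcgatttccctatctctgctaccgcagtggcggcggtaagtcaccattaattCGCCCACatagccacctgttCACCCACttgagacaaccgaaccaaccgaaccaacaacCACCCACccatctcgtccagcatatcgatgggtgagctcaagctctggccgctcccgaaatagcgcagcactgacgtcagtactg
Cys-GCA-1-4 summit: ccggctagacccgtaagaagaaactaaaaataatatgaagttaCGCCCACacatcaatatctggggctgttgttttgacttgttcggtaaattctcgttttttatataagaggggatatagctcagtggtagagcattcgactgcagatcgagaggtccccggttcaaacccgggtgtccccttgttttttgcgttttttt
Tyr-GTA-1-8 summit: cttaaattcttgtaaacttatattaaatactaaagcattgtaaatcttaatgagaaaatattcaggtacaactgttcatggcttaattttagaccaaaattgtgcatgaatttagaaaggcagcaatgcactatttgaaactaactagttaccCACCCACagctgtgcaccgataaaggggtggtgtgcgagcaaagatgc

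The 290 tRNA genes comprised 22 isotypes and 44 anticodons. Chromosome arm 2R held 98 of them, 3R 79, 3L 48, 2L 41, X 24 and chromosome 4 none (0 genes). Their median length was 73 bp (71 to 186 bp), and 271 (93.4%) held the B box sequence. Only 95 distinct sequences were present, 238 genes had at least 1 identical copy elsewhere in the set, and the most frequent sequence occurred 13 times. The surroundings were less repetitive: over the gene and 250 bp on either side, a median of 94.1% of 50-mers (stretches of 50 bases) occurred once in the genome, although the lowest value was 2.10%. Grouping neighbours whose starts lay up to 5000 bp apart gave 144 clusters, of which 76 were single genes and 10 held 5 or more. Of all tRNA genes, 155 were intergenic, 127 lay in an intron and 8 overlapped an exon of another gene. The windows around them covered 142401 bp, 0.106% of the arms.

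The thresholded lists hold peaks that reached a global IDR of 0.01 or less. IDR, the irreproducible discovery rate, is low for peaks that keep their rank between the sets of peaks compared. The lists of a library were made from its own alignment, so their IDR does not measure agreement between the 3 libraries. In the thresholded lists, tRNA genes with a summit were few and came mostly from replicate 1. There, 16 of 290 tRNA genes (5.52%, Wilson 95% interval 3.42 to 8.77) had a summit, against 4.65% of 13945 protein-coding 5′ ends. In replicate 2, 3 genes (1.03%, 0.352 to 3.00) had one, against 2.81%. In replicate 3, 3 genes (1.03%, same interval) had one, against 5.59%. The mean over the libraries was 2.53% ± 2.59 (SD, n = 3), so the spread between replicates was as large as the share. The lists held 2754, 1683 and 3013 peaks, so replicate 3 had the longest list and no more tRNA genes than the shortest. Intervals cover counting error only and treat genes as independent, which neighbours sharing a peak are not.

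Summits spread evenly along each arm, at each list's own number per arm, would reach 3.56 tRNA genes in replicate 1, 2.16 in replicate 2 and 3.80 in replicate 3 (calculated exactly, without drawing placements). The observed counts were 4.49, 1.39 and 0.789 times these values, 2.22 ± 1.99 on average (SD, n = 3). Replicate 1 thus stood above even placement, with a share near that of protein-coding 5′ ends, which lay inside its interval. Replicates 2 and 3 were within 1 gene of even placement, and the protein-coding share of replicate 3 lay above its interval. Even placement takes no account of open chromatin, repeats or the control file that the 3 libraries share, and the part of these in the counts was not tested. A protein-coding 5′ end is a single point, whereas a tRNA gene has a body. Measured from the tRNA 5′ end instead, the shares were 4.83%, 1.03% and 0.690%, or 1.04, 0.368 and 0.123 times the protein-coding shares.

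The 4 joint lists, made by the authors from the 3 libraries together, gave intermediate counts. The longest list (5040 peaks) had summits at 13 tRNA genes (4.48%, 2.64 to 7.52) against 8.78% of protein-coding 5′ ends. The conservative list (4044 peaks) had 10 (3.45%, 1.88 to 6.23) against 7.23%. The third by length (3249 peaks) had 7 (2.41%) against 5.54%, and the shortest (3172 peaks) also 7 against 5.33%. In each joint list the tRNA share was 0.435 to 0.510 times the protein-coding share while being 1.69 to 2.02 times the even placement value. In any of the 4 lists it was 13 genes (4.48%) against 9.96%. The joint lists share their libraries with each other and with the single-library lists and are no independent repeats.

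**Figure D1:**
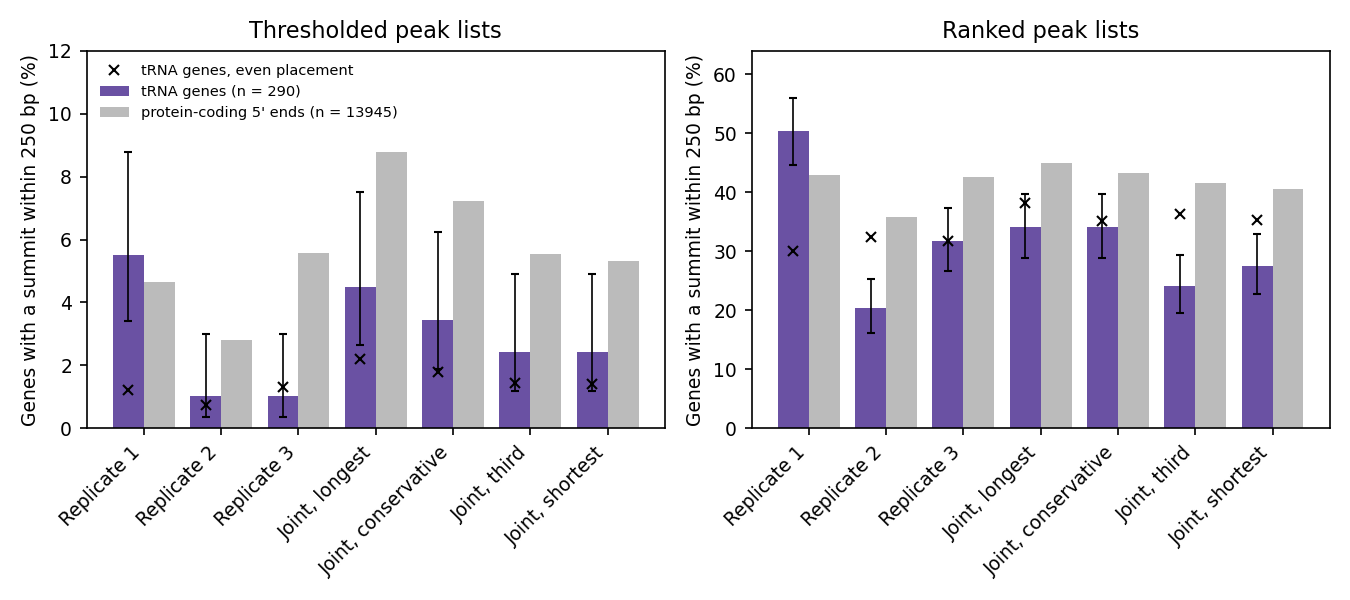
Share of tRNA genes with a summit within 250 bp (purple bars, Wilson 95% intervals) and of protein-coding 5′ ends (grey bars) in percent for each peak list, thresholded lists on the left and ranked lists on the right, with crosses for even placement. In both panels only replicate 1 has a tRNA share above the protein-coding share, 5.52% against 4.65% and 50.3% against 42.9%.

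Short non-coding genes of other classes set a second background. In replicate 1, 1.86% of 269 snoRNA genes (guides of RNA modification) and 1.62% of 924 non-coding RNA genes of up to 300 bp had a thresholded summit. The same shares were 1.49% and 0.758% in replicate 2 and 1.12% and 1.41% in replicate 3. None of the 99 rRNA genes had one in any library (0 of 99 in each). Even in the ranked lists only 2, 0 and 0 of these 99 genes had a summit in replicates 1, 2 and 3. The class was thus hardly called at any depth and is a poor background, and the reason was not tested. Of 32 snRNA genes (spliceosomal and 7SK RNAs), 9.38%, 3.12% and 3.12% had one in replicates 1, 2 and 3. The tRNA share was thus above snoRNA and short non-coding genes and below snRNA genes in replicate 1 and within the range of these classes in replicate 2, and it was below snoRNA, short non-coding and snRNA genes in replicate 3. The order in replicate 3 rests on few genes: 3 tRNA, 3 snoRNA, 13 short non-coding and 1 snRNA. The snoRNA and short non-coding shares there lay inside the tRNA interval. A set of 9 other RNA polymerase III genes was chosen by name: the U6, 7SK, 7SL, RNase P and RNase MRP RNA genes. It holds no rRNA genes, so it is not the whole of that class, and its U6 and 7SK genes also belong to the snRNA class above. In this set, 7SKa, whose RNA restrains a kinase needed for transcript elongation, had thresholded summits in replicate 1 (signal 56.6) and replicate 2 (34.5). In replicate 3 it had only a ranked one (50.5). The spliceosomal U6 gene U6:96Ac had one in replicate 1 only (38.0). RNaseMRP:RNA, part of an enzyme that processes ribosomal RNA, was in the longest and the conservative joint list (84.2). In all, 2 of these 9 genes (22.2%) had a thresholded summit in replicate 1, 1 (11.1%) in replicate 2 and 0 in replicate 3.

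Across all thresholded lists, 19 tRNA genes (6.55%, against 10.8% of protein-coding 5′ ends) had a summit: 10 in a library list and a joint list, 6 in library lists alone and 3 in joint lists alone. Only 2 of them (0.690% of tRNA genes, against 1.9% of protein-coding 5′ ends) had one in all 3 libraries, the tyrosine gene Tyr-GTA-1-8 and the phenylalanine gene Phe-GAA-1-2. Tyr-GTA-1-9 had one in replicates 1 and 2, and Ala-AGC-2-10 in replicates 1 and 3. The remaining 12 genes of the library lists were in replicate 1 alone, while no gene was in replicate 2 alone or replicate 3 alone (0 each). No such split by library was computed for protein-coding 5′ ends, so it cannot be read as particular to tRNA genes. Counted by cluster, 16 of 144 had a summit in some thresholded list and 11 in a joint list. No even placement value or background share was computed per cluster. A cluster can hold several genes, so these counts cannot be set against the shares per gene.

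**Figure D2:**
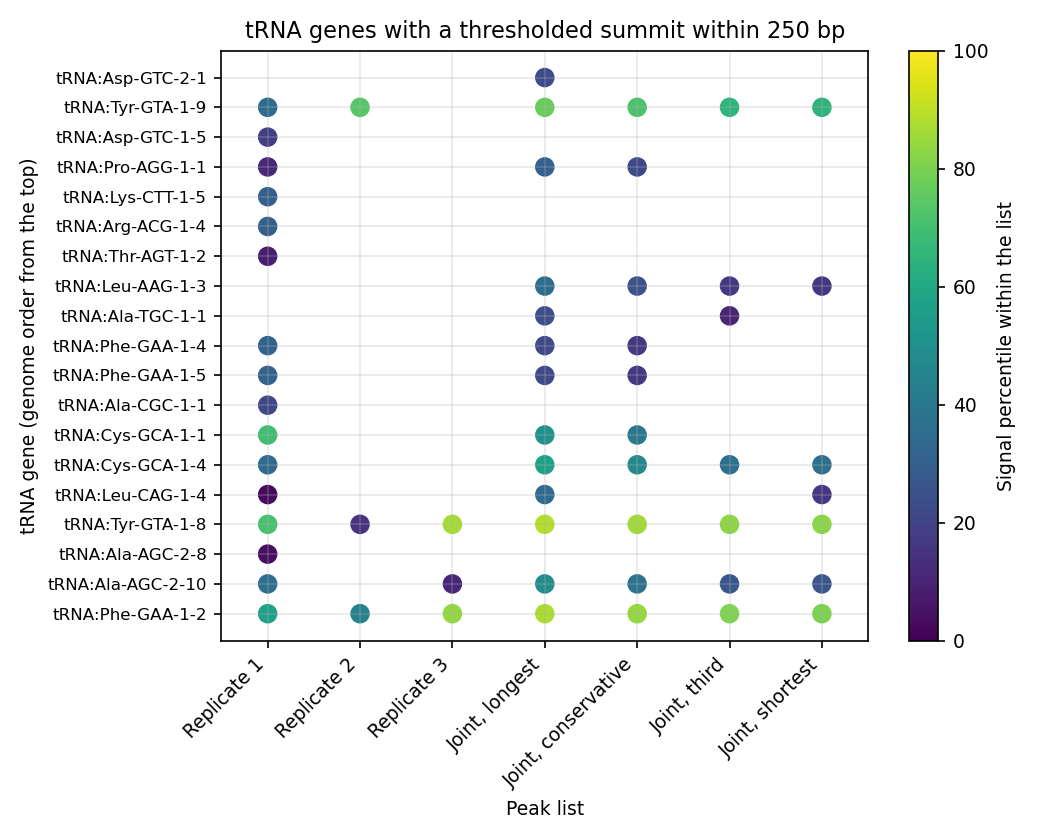
The 19 tRNA genes with a thresholded summit within 250 bp (rows) by peak list (columns), each dot coloured by the signal percentile of the peak among the peaks of its list (0 to 100). Dots fill the first column in 16 rows and the next pair of columns in 3 rows each, and only Tyr-GTA-1-8 and Phe-GAA-1-2 have a dot in every column.

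Of the 4 genes found in more than 1 library, 3 lay within 500 bp of a protein-coding promoter. At Tyr-GTA-1-8, in an intron of CG8036 on the opposite strand, the signal was 67.7 in replicate 1, 37.9 in replicate 2 and 109.0 in replicate 3. All 3 summits lay 188 to 226 bp upstream of the tRNA gene and 218 to 256 bp from a transcription start site (TSS) of CG8036, and an EGR core was within 100 bp of each. Signals are the authors' own values and are placed within their list by percentile, which for this gene was 70.9, 14.7 and 86.4 in the thresholded lists. At Phe-GAA-1-2 (dm6 chrX:6744471-6744543, minus strand) the signal was 56.9, 49.1 and 100.04 in replicates 1, 2 and 3. Its summits lay 240 to 264 bp downstream of the tRNA 5′ end and 41 to 65 bp from the TSS of RpL17, which encodes a protein of the large ribosomal subunit, with no EGR core within 100 bp. The Tyr-GTA-1-9 gene (chr2L:7711476-7711661, plus) overlaps an exon at the 5′ end of Ntl, a neurotransmitter transporter-like gene. Its signal was 46.2 in the first library and 70.2 in the second, and in the third a ranked peak of 37.7 had a global IDR of 0.0150, just above the threshold. Its summits in replicates 1 and 2 were 194 and 214 bp upstream of the tRNA gene and 205 and 225 bp from the Ntl TSS, with the EGR core nearby.

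The other was Ala-AGC-2-10, in an intron of CG14322 and 615 bp from the nearest protein-coding TSS, that of CG45045. Its signal was 46.6 in replicate 1 and 38.2 in replicate 3, whereas a ranked peak of 25.7 in replicate 2 had a global IDR of 0.0808. The summits lay 147 bp upstream of the gene in replicate 1 and 85 bp upstream in replicate 3, without an EGR core within 100 bp. They were 468 and 530 bp from the CG45045 TSS, so the replicate 1 summit itself was within 500 bp of a promoter. The 500 bp limit below applies to the tRNA gene, not to its summit. Leaving out the 33 tRNA genes within 500 bp of a protein-coding TSS left 12 genes in replicate 1, 0 in replicate 2 and 1 in replicate 3. The nearness of a promoter therefore accompanied all 3 calls of replicate 2 and 2 of the 3 of replicate 3, and its part in the signal was not tested.

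For the 12 genes called in replicate 1 alone, signals ran from 29.1 to 66.3 with a median of 42.6, at percentiles of 3.05 to 69.5 (median 25.8) within that thresholded list. Genes called in more than 1 library all stood above that median there. Tyr-GTA-1-9 was at 34.6, Ala-AGC-2-10 at 35.8, Phe-GAA-1-2 at 57.3 and Tyr-GTA-1-8 at 70.9. The strongest of the 12 was Cys-GCA-1-1, at 66.3 in replicate 1 with a global IDR of 6.41e-05. Its signal percentile in the ranked lists was 98.9 in replicate 1, 77.1 in replicate 2 and 92.9 in replicate 3. Its neighbour Cys-GCA-1-4, with a signal of 45.9 in replicate 1, stood at percentiles of 97.6, 96.0 and 94.99. Both lie in an intron of the chitinase gene Cht7, in a cluster of 6 cysteine and lysine tRNA genes, all 6 of which had a ranked summit in replicate 1, 2 in replicate 2 and 5 in replicate 3. In replicate 1 their summits were 57 and 39 bp upstream of the genes, and in the longest joint list (signals 101 and 111) they were 2 bp inside Cys-GCA-1-1 and 11 bp upstream of Cys-GCA-1-4. Of the 12 genes, 3 had a ranked summit in both other libraries, 7 had one in replicate 3 and 5 had none in either. Those 5 were Asp-GTC-1-5, Lys-CTT-1-5, Arg-ACG-1-4, Ala-CGC-1-1 and Ala-AGC-2-8. Over all 290 tRNA genes, 59 (20.3%) had a ranked summit in replicate 2, 92 (31.7%) in replicate 3 and 35 in both. Counts among 12 genes are too small to be told apart from these shares.

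Several of these calls rest on 1 peak between a pair of genes. Lys-CTT-1-5 and Arg-ACG-1-4 on 2R share a summit with a signal of 44.2 in replicate 1, 23 bp upstream of the first and 96 bp upstream of the second. Phe-GAA-1-4 and Phe-GAA-1-5 on 2R share one with a signal of 44.5 in replicate 1 and 72.1 in the longest joint list, so that the 16 genes of replicate 1 came from 14 summits in 13 clusters. Other single calls of replicate 1 were Pro-AGG-1-1 (signal 36.9, nearest TSS that of noc, which encodes a zinc finger protein), Thr-AGT-1-2 (35.4), Ala-CGC-1-1 (41.1, in an intron of gol), Leu-CAG-1-4 (29.1), Ala-AGC-2-8 (29.6) and Asp-GTC-1-5. The last, also within 500 bp of a promoter, had a signal of 39.9 from a summit 94 bp from a TSS of the axon guidance gene Sema1a. In joint lists alone stood Asp-GTC-2-1 (72.7, in an intron of tkv, a BMP receptor gene), Leu-AAG-1-3 (83.0) and Ala-TGC-1-1 (73.2), the values being signals in the longest joint list. The first and the second of these had ranked summits in all 3 libraries, with signals of 21.6, 21.3 and 25.8 for Asp-GTC-2-1 and 25.4, 31.2 and 25.6 for Leu-AAG-1-3 in replicates 1, 2 and 3, and Ala-TGC-1-1 only in replicates 2 (27.3) and 3 (33.2).

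**Figure D3:**
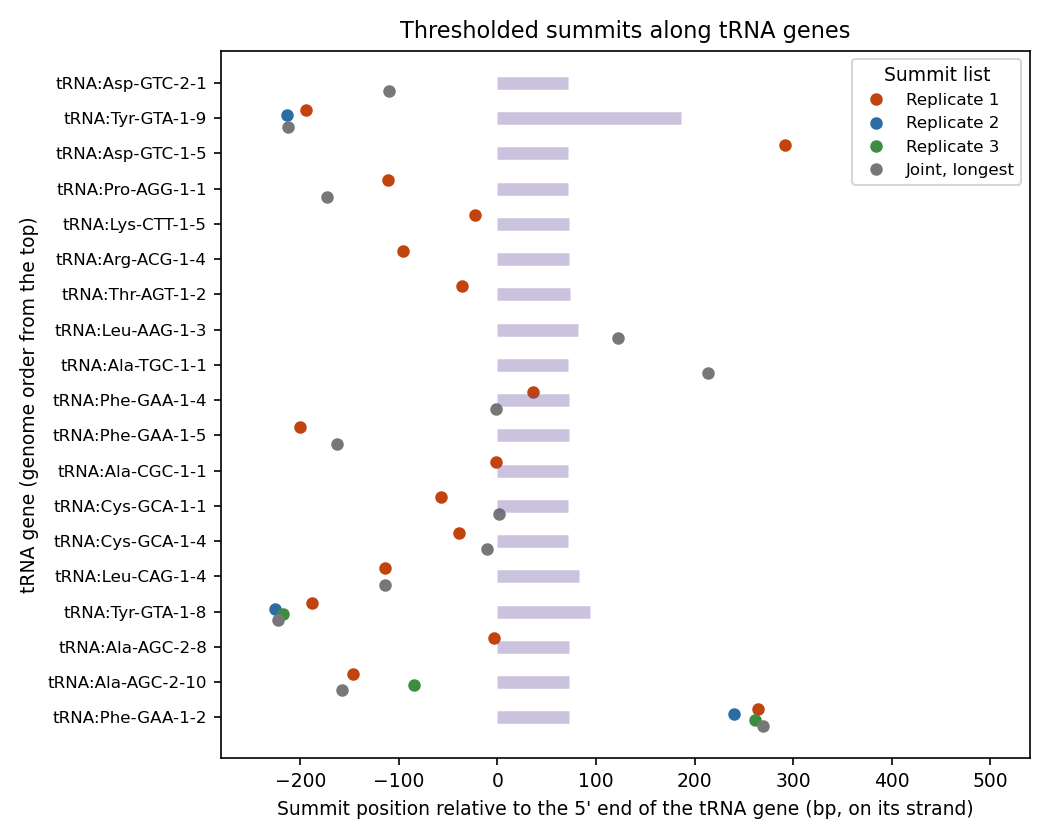
Position of each thresholded summit relative to the 5′ end of its tRNA gene in bp on the strand of the gene (negative is upstream), with the gene drawn as a pale bar and dots coloured by list. In replicate 1, 13 of 16 dots are upstream, and the dots of the 3 libraries at Tyr-GTA-1-8 and at Phe-GAA-1-2 lie on the same side of the gene.

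For most tRNA genes with a thresholded summit, that summit was upstream, but the counts are small. Positions are counted per gene, so a shared summit counts for each of its genes. In replicate 1, the summit was upstream for 13 of 16 genes, in the gene for 1 and downstream for 2. The median position was 48 bp upstream of the 5′ end. For the 11 genes with a summit over 500 bp from a protein-coding TSS, the median was 39 bp upstream (200 bp upstream to 36 bp downstream). In the longest joint list, the summit was upstream for 9 of 13 genes, with a median 110 bp upstream. The ranked lists showed less of this, with 49.3%, 54.2% and 44.6% of genes having an upstream summit in replicates 1, 2 and 3. The EGR core was within 100 bp of 3 of 14 distinct tRNA summits in replicate 1, against 40.1% of all summits of that list. It was near 2 of 3 in replicate 2 (44.5% of all), 1 of 3 in replicate 3 (36.6%) and 3 of 12 in the longest joint list (36.3%). The B box sequence, searched on both strands, was within 100 bp of 5 of the 14 summits in replicate 1 against 6.29% of all summits, and of 0 of 3 in replicates 2 and 3. Since the windows are placed at tRNA genes, which hold the B box, that count only restates how near the summits were.

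The ranked lists, which hold 81528, 89928 and 88129 peaks and thus mostly weak ones, again gave replicate 1 the highest tRNA count, with replicate 3 now above replicate 2. Ranked summits lay at 146 tRNA genes (50.3%, 44.6 to 56.1) in replicate 1 against 42.9% of protein-coding 5′ ends, at 59 (20.3%, 16.1 to 25.4) in replicate 2 against 35.8%, and at 92 (31.7%, 26.6 to 37.3) in replicate 3 against 42.5%. These were 1.67, 0.628 and 0.998 times the even placement counts, and the mean share was 34.1% ± 15.1 (SD, n = 3). In the 4 joint ranked lists the counts were 99 (34.1%, longest), 99 (34.1%, conservative), 70 (24.1%) and 80 (27.6%). The protein-coding shares were 45%, 43.2%, 41.7% and 40.6%. The joint counts were 0.892, 0.970, 0.663 and 0.782 times even placement, all below it, unlike those of the joint thresholded lists. Replicate 2 had the longest ranked list and the fewest tRNA genes in it. Most ranked peaks had a global IDR above 0.2, those at tRNA genes somewhat less often than the rest: 76.1% of the tRNA summits against 90.7% of all summits in replicate 1, 89.7% against 95.02% in replicate 2 and 85.6% against 91.4% in replicate 3. No tRNA summit with a ranked IDR of 0.01 or less was missing from its thresholded list (0 in each of the 7 pairs of lists). There were only 14, 3 and 3 such tRNA summits in replicates 1, 2 and 3. Few such peaks were missing among all summits either: 96 of 2847, 70 of 1748 and 101 of 3109. The absence is therefore no trait of tRNA genes.

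Of the 290 tRNA genes, 25 had a ranked summit in all 3 libraries, 16 in replicates 1 and 2, 38 in 1 and 3, and 10 in 2 and 3. A further 67 were in replicate 1 alone, 8 in replicate 2 alone and 19 in replicate 3 alone, and 107 in none. For protein-coding 5′ ends only the share in all 3 libraries was computed, so the rest of this split has no background. The 25 genes are 8.62% of the set, against 17.5% of protein-coding 5′ ends. With the joint lists included, 201 genes (69.3%) had a summit in at least 1 of the 14 lists, close to the 69.5% of protein-coding 5′ ends, and 89 had none. Among the 25 genes common to all libraries, the median signal percentile within the ranked lists was 87.9, 76.4 and 81.5 for replicates 1, 2 and 3, and 15 of the 25 had their highest percentile in replicate 1. The highest means over the 3 libraries belonged to Phe-GAA-1-2 (98.9 ± 0.469, SD, n = 3), Tyr-GTA-1-8 (98.9 ± 0.661), Tyr-GTA-1-9 (97.8 ± 1.55), Ala-AGC-2-10 (96.7 ± 0.953) and Cys-GCA-1-4 (96.2 ± 1.33). All 5 had a thresholded summit as well.

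The order of the libraries held at equal numbers of ranked peaks, but not among the strongest peaks. In the 1678 peaks with the highest signal of each thresholded list, 3 tRNA genes had a summit in replicate 1, 3 in replicate 2 and 2 in replicate 3. In the 5000 peaks with the highest signal of each ranked list the counts were 29, 7 and 10, and in the top 10000 they were 46, 9 and 22, against 14.3%, 10.1% and 13.6% of protein-coding 5′ ends. At 10000 peaks these counts were 3.61, 0.702 and 1.75 times even placement, and the snoRNA gene counts were 20, 14 and 14. The greater number in replicate 1 thus lay among peaks of moderate signal. No other library shared it at that depth of the list, and its source was not tested.

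**Figure D4:**
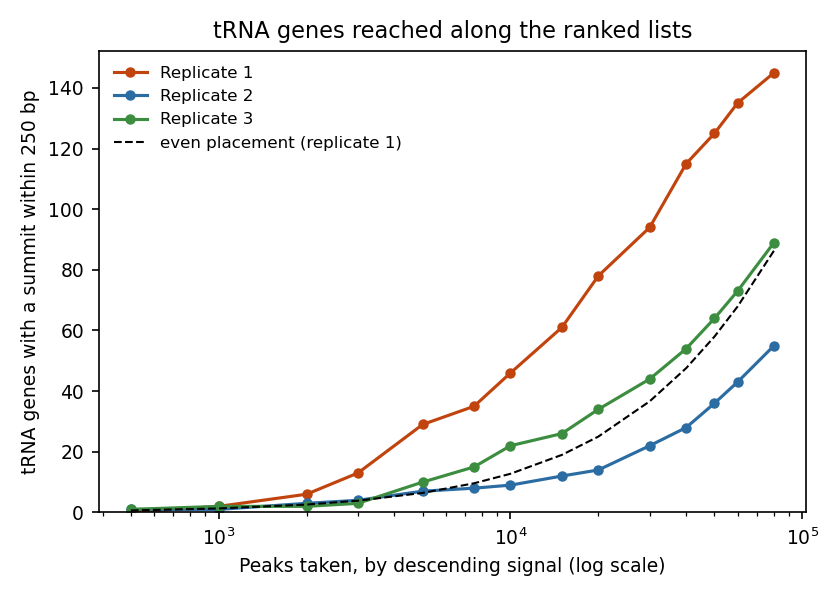
Number of tRNA genes with a summit within 250 bp (vertical axis) as peaks are added by descending signal (horizontal axis, log scale) in the ranked list of each library, with the even placement count of replicate 1 as a dashed line. The 3 curves lie together up to 1000 peaks, and at 10000 peaks they stand at 46, 9 and 22 genes.

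A local comparison of ranked summits gave the same order of the libraries. Ranked summits per 100 bp from 200 bp upstream to 299 bp downstream of tRNA 5′ ends were 1.15 times as dense as 1100 to 2000 bp away in replicate 1, 0.491 times in replicate 2 and 0.798 times in replicate 3. The same ratios at protein-coding 5′ ends were 1.13, 1.02 and 1.18. Between libraries the tRNA ratio varied more than the protein-coding ratio. For thresholded summits, which are few at tRNA genes, the tRNA ratios were 1.75, 0.3 and 0.36 in replicates 1, 2 and 3. The protein-coding ratios were higher, at 4.01, 3.998 and 4.14. In replicates 1, 2 and 3 the outer stretch held 0.632, 0.230 and 0.383 thresholded summits per 100 tRNA genes per 100 bp. The protein-coding values were 0.229, 0.137 and 0.255. Counted per gene, thresholded summits were thus denser in the wider surroundings of tRNA genes than in those of protein-coding 5′ ends in all 3 libraries. A summit was counted once for every gene in reach, and 214 tRNA genes lay in clusters of 2 or more. A summit at a neighbouring tRNA gene can therefore enter the outer stretch, raise its density and lower the ratio. How often this happened was not counted for either class. The tRNA and protein-coding values are therefore not directly comparable.

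The genes with a thresholded summit did not belong to 1 kind of tRNA. They covered 10 isotypes: alanine 4 of 17 genes, phenylalanine 3 of 8, tyrosine 2 of 10, cysteine 2 of 7, aspartate 2 of 14, leucine 2 of 22, and arginine, lysine, proline and threonine 1 each, of 26, 19, 17 and 17. The glutamate (19), glycine (20), serine (20) and valine (15) genes, among others, had 0. By position, 11 of 155 intergenic, 6 of 127 intronic and 2 of 8 exonic tRNA genes had one. By copy number, it was 4 of 52 genes of unique sequence, 4 of 58 with 2 to 4 identical genes and 11 of 180 with 5 or more. By cluster size, it was 4 of 76 single genes, 10 of 142 in clusters of 2 to 4 and 5 of 72 in larger ones. By arm, it was 4 of 41 on 2L, 8 of 98 on 2R, 3 of 48 on 3L, 3 of 79 on 3R and 1 of 24 on X. The median share of unique 50-mers was 93.7% around these genes and 94.1% around the others, a small difference.

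The 2 clusters of 8 or more genes held 11 each. The first (chr2R:6161535-6171759), with arginine, asparagine, isoleucine and lysine genes, had 2 genes with a thresholded summit in replicate 1, the pair with a common peak, and 0 in the other libraries and in the joint lists. Its ranked counts were 2, 0 and 0 genes. The second (chr3R:17617761-17631750), with alanine, proline, threonine and valine genes, had 0 in all thresholded lists and 8, 3 and 4 in the ranked lists of replicates 1, 2 and 3.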

How the data were processed

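Stripe ChIP-seq was measured in 3 libraries of 1 group. The text notes deposited with the lists say that those of a library were made from its alignment and a control file common to the 3, and the 4 joint lists from all 3. The sources used here name no aligner or peak caller (not given), and read totals are not known. Peak signal is deposited by the authors with no normalization named and served to rank and describe peaks inside 1 list. The authors' deposited score rescales the IDR. Stricter and looser limits used the −log10 global IDR that the authors deposited in the ranked lists. Coordinates are dm6.

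From these lists, summits within 250 bp of a tRNA gene were counted, beside protein-coding 5′ ends and other gene classes. The count under even placement within arms was computed exactly. No test was made, since there is only 1 group. Wilson 95% intervals cover counting error only. All 290 tRNA genes had the same coordinates in RefSeq. The counting was tested on simulated data. Named genes were every tRNA gene with a thresholded summit, the 5 with the highest mean signal percentile among those with a ranked summit in all 3 libraries, and clusters of 8 or more genes. The members and lists were chosen with earlier results of these data known. Alternatives covered distance, peak overlap, IDR, promoter distance, cluster gap and left-out replicates. Python 3.11.15, pandas 2.3.3, numpy 2.4.6, scipy 1.17.1 and matplotlib 3.10.9 were used.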

Additional observations from a re-analysis of the deposited data

How the results depend on the processing

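The counts moved with distance, overlap and IDR. At 100, 500 and 1000 bp in place of 250 bp, the genes with a thresholded summit in all 3 libraries (2) numbered 0, 3 and 8, those in the conservative joint list (10) numbered 4, 18 and 33, those in any joint list (13) numbered 4, 25 and 44, their clusters (11) numbered 3, 19 and 28, and the genes in all 3 ranked lists (25) numbered 8, 62 and 151. Requiring the peak to overlap the gene gave 0, 4, 7, 6 and 10 in the same order. A global IDR of 0.001 gave 1, 4, 6 and 5 for the thresholded counts, and one of 0.05 gave 3 for the ranked count. Away from promoters, by over 500 bp, the count in all 3 thresholded libraries was 0, and replicates 2 and 3 had 0 and 1 in place of 3 each. The other counts changed less: 7 in the conservative joint list, 10 in any joint list, 8 clusters and 21 in all 3 ranked lists. Distances from the 5′ end, an alternative chosen after seeing the data as were the lists of equal length and the promoter limit for single libraries, gave 1 for all 3 thresholded libraries. For the other counts, in the same order, they gave 9, 12, 10 and 22. At equal list length replicate 1 had 3 genes in place of 16, by signal and by IDR. Leaving out 1 replicate gave 2 to 3 genes (thresholded) and 35 to 63 (ranked, the highest without replicate 2, with 41 without replicate 3). Cluster gaps of 2000 and 10000 bp both gave 11 clusters. No paired analysis was possible because there is only 1 group. With 3 libraries, unknown depth and counts of 3, differences between libraries cannot be told apart from differences in depth or enrichment.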
